A study of Mus musculus with 6 samples.

Results

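Imprinted genes of the mouse and their neighbours in imprinted domains were followed in cultured smooth muscle cells after knockdown of Ezh2. The list held 40 genes of 16 domains, chosen by symbol from textbook imprinted domains. Of these, 39 were in the expression tables, which held 27502 genes, and Rtl1 was not analysed here. These vascular smooth muscle cells, which contract to narrow an artery, were taken from mouse aorta and grown in culture. The siEzh2 group had 3 samples given small interfering RNA against Ezh2, and the control group had 3 samples. Both were harvested at 48 hours. For the control treatment, the strain and age of the mice and the origin of replicates (separate cultures, separate mice or neither), details were not given in the sources used here. All p-values therefore reflect just the spread between these particular samples, which may be technical. Values are FPKM, read fragments per gene scaled by gene length and library size.

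Imprinted genes are transcribed mainly or only from the copy inherited from the mother, or only from that inherited from the father. The choice is mostly set by DNA methylation laid down in the germ cells at imprinting control regions. These direct the genes of a domain, often through a long noncoding RNA. Ezh2 is the catalytic subunit of Polycomb repressive complex 2 (PRC2), the writer of the silencing histone mark H3K27me3. In the placenta this complex takes part in silencing the paternal copies of genes around Kcnq1, together with the noncoding RNA Kcnq1ot1. Many imprinted genes act on growth, and H19 is known for its return in smooth muscle cells of injured vessels. The libraries did not tell the parental copies apart, so each value is the sum over both.

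Ezh2 itself was measured at 3.41, 3.59 and 3.88 FPKM in control samples 1 to 3 and at 1.20, 1.09 and 1.05 FPKM in siEzh2 samples 1 to 3. It was 3.26-fold lower with siEzh2 (log2 change -1.13, adjusted p = 5.15e-05), so the target moved as the labels say. Between 16080005 and 18753124 reads per sample were recovered from the values. Markers of several cell types differed between the groups, beside 24.1% of all tested genes higher and 22.7% lower. The summed FPKM of 9 smooth muscle markers was 874 to 899 in control and 608 to 647 in siEzh2 samples, with 6 of 7 tested markers lower. Most of that sum was Acta2, with means of 699 FPKM in control and 537 FPKM in siEzh2 samples. Tagln and Des stayed under 1 FPKM in every sample. For 6 fibroblast and adventitial markers the sum was 60.0 to 64.7 in control and 52.3 to 54.1 in siEzh2 samples, with 1 of 5 tested markers higher and 3 lower. For 6 macrophage and leukocyte markers it was 14.8 to 17.4 and 10.3 to 12.0, with 1 of 3 tested markers higher and 2 lower and Ptprc and Itgam near 0. For 5 endothelial markers it was 2.17 to 2.42 and 3.48 to 3.84, and the only tested one, Kdr, was higher. Pecam1, Cdh5 and Tek stayed under 1 FPKM in every sample. Mean Pecam1 was lower with siEzh2 (0.170 to 0.0789 FPKM, no overlap), and Cdh5 overlapped (0.223 to 0.196). Tek (0.332 to 0.857 FPKM) and Vwf (0.417 to 0.932) were higher without overlap. The part of these shifts in the results for imprinted genes was not tested. In bulk RNA, fewer cells of a type and less RNA per cell cannot be told apart.

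Some sequences place the genes that carry the results. H19 is the host transcript of miR-675, a microRNA cut from its exon, and both mature forms are given here with the seed, bases 2 to 8, in capitals. The reference sequences are from RefSeq (GRCm38.p6, chr7:142577078-142577099 and chr7:142577112-142577133, minus strand), and the mRNA libraries did not measure mature microRNAs.
miR-675-3p: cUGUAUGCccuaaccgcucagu
miR-675-5p: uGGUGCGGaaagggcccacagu

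To show promoters rich and poor in CG among called genes, windows are printed for 1 gene that rose and 2 that fell, as the 250 bases before a RefSeq start site. Every CG dinucleotide, the site of DNA methylation, is in capitals. Windows of called genes held from 0 (Slc22a18) to 40 (Grb10). The Grb10 window shown (GRCm38.p6, chr11:12037421-12037670, minus strand) held 40 CG and 81.2% G and C, and the other one held 8. Of the Osbpl5 windows the one shown (chr7:143740361-143740610, minus strand) held 18 CG and the others 14 and 1. The Snrpn window shown (chr7:60140226-60140475, minus strand) held 3, and the others 2 to 4. The last sequence is the 163 bases that Peg3 and Usp29 share between their divergent starts (chr7:6730420-6730582, plus strand), with 5 CG.
Grb10: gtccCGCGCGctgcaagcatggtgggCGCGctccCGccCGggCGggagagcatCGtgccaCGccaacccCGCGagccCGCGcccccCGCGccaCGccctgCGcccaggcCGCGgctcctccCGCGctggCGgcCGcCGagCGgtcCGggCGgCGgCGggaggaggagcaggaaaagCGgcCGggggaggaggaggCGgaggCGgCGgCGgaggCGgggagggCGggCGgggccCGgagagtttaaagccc
Osbpl5: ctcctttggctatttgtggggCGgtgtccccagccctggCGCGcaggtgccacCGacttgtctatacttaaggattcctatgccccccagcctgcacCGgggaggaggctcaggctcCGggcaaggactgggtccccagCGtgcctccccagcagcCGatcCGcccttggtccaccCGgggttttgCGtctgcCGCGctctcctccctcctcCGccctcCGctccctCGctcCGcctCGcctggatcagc
Snrpn: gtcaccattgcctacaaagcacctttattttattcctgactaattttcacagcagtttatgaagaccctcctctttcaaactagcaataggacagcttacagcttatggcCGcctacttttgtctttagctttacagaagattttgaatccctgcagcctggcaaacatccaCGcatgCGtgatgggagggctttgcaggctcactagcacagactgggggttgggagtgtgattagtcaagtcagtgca
Peg3 and Usp29: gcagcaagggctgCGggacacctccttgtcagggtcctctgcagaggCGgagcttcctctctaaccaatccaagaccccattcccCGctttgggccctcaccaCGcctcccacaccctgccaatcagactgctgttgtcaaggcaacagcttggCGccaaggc

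For the listed genes, windows on chromosome 18, where Impact lies, were left out, though not from the windows of the whole mouse. That gave 48 such windows for 31 of the 40 genes. Besides Impact, H19, Sgce, Peg13, Trappc9, Peg10, Nap1l4, Kcnk9 and Rtl1 had no window in the reference used. The called genes H19, Sgce, Peg13, Trappc9 and Impact were therefore not searched. Their median was 9 CG per window, beside 6 over all 32851 windows of the mouse. The letters TGCCGC, the motif bound by the imprint keeper ZFP57 when methylated, were searched on both strands. They stood in 9 of the 48 windows (18.75%), from 8 genes, and in 8.68% of all windows. Windows of a gene can overlap. The Mest windows that begin at 30737800 and 30737803 of chromosome 6 hold the same motif sites and were counted separately. Among 8 called genes with a window 2 held the motif, Nap1l5 and Osbpl5, where it reads tgcCGC in the sequence above. A match is a description of letters only, and the windows were not compared with imprinting control regions.

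Of the 40 genes, 20 had a mean of at least 1 FPKM in a group and were tested, all 20 reaching that mean in both groups. With siEzh2, 3 were higher (H19, Grb10 and Nnat) and 10 were lower (Slc22a18, Snrpn, Peg13, Nap1l5, Sgce, Ndn, Impact, Osbpl5, Trappc9 and Cd81) at an adjusted p under 0.05. Among all 11869 tested genes 24.1% were called higher and 22.7% lower. The imprinted genes thus had 15% higher and 50% lower calls. Called in either direction were 65%, beside 46.9% of all tested genes. Their median log2 change was -0.17, beside 0.01 over all tested genes. Called changes were small, from 0.16 to 0.75 in size on the log2 scale with a median of 0.36, beside 0.29 over all called genes. The siEzh2 and control samples did not overlap for 16 of the 20 genes (4 higher and 12 lower), beside 58.1% of all tested genes (30.0% higher and 28.1% lower). The called genes lay in 9 of the 14 domains with a tested gene. With limma-voom on recovered reads 3 of the 20 were higher and 12 lower, beside 25.8% and 26.6% of all genes in that fit and 52.5% in either direction.

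**Figure D1:**
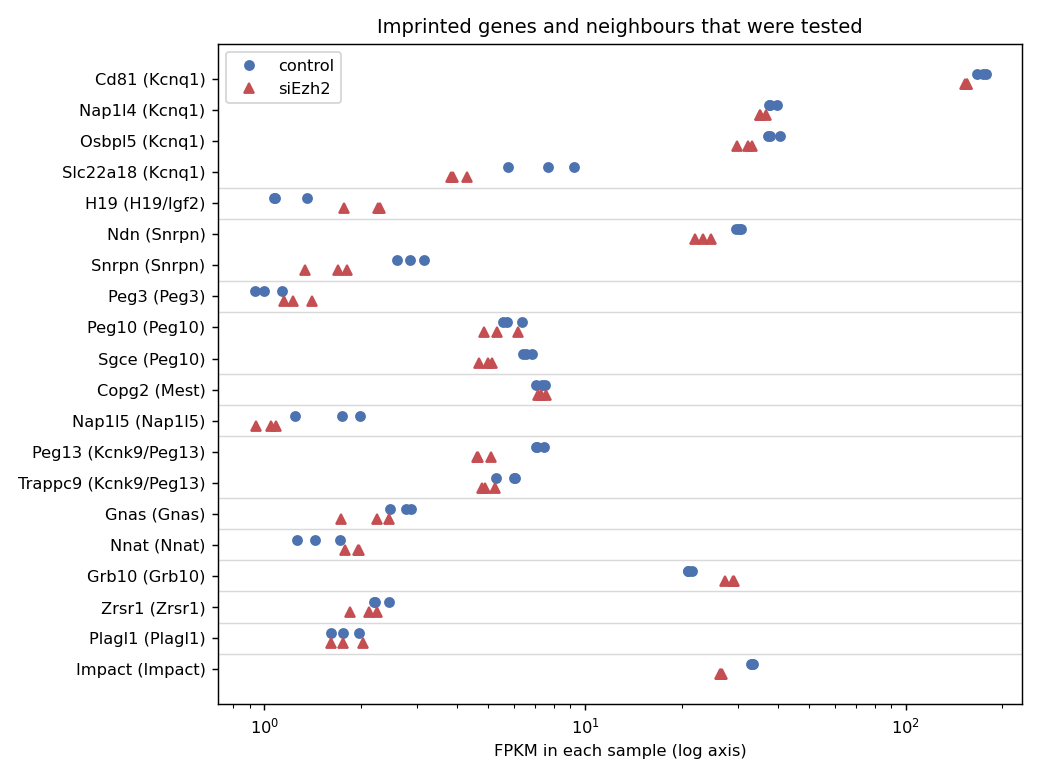
FPKM of the 20 tested genes in each sample, on a log axis, with the domain in brackets; circles are the 3 control samples and triangles the 3 siEzh2 samples. Triangles lie left of every circle for 12 genes and right of every circle for 4, H19, Grb10, Nnat and Peg3.

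Of the maternally expressed genes, H19 and Grb10 rose. H19 (ENSMUSG00000000031, chromosome 7, 142575529 to 142578143), the growth-restraining noncoding RNA, was measured at 1.36, 1.08 and 1.07 FPKM in control samples 1 to 3 and 1.77, 2.29 and 2.27 FPKM in siEzh2 samples 1 to 3. Every siEzh2 sample lay above every control sample. The mean rose from 1.17 ± 0.162 to 2.11 ± 0.294 FPKM (SD, n = 3 each), 1.80-fold, a log2 change of 0.52 (SE 0.086, adjusted p = 0.00415, limma). With limma-voom on recovered reads, which adds no pseudocount of 1 FPKM, the log2 change was 0.84 (adjusted p = 0.000417). H19 remained a low transcript in both groups.

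Grb10 (chromosome 11, 11930508 to 12038683), an adaptor that restrains signalling from insulin and IGF receptors, was an abundant one. It gave 20.99, 21.49 and 20.96 FPKM in controls and 29.0, 27.3 and 29.2 FPKM with siEzh2. The controls differed by little, and all siEzh2 samples lay above them. The rise was 1.35-fold (log2 change 0.41, SE 0.039, adjusted p = 0.000523). Its neighbour Ddc, the decarboxylase that makes dopamine and serotonin, was below the filter, with 13, 10 and 11 recovered reads in controls and 5, 7 and 3 with siEzh2. Cobl, an actin nucleator on the far side of Grb10, did not pass (log2 change -0.05, adjusted p = 0.438), while Fignl1, an ATPase of DNA repair nearby, rose (0.58, adjusted p = 0.000864).

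Nnat, the paternally expressed gene of neuronatin, a small protein of the endoplasmic reticulum, lies within an intron of Blcap. Its values were 1.44, 1.72 and 1.27 FPKM in controls and 1.97, 1.96 and 1.79 FPKM with siEzh2, without overlap. The difference was 1.29-fold (log2 change 0.24, SE 0.072, adjusted p = 0.0367). Leaving out control sample 1 (adjusted p = 0.094) or 3 (0.086), or siEzh2 sample 1 (0.096), 2 (0.0968) or 3 (0.0539), ended this call. So did limma-voom (log2 change 0.37, adjusted p = 0.129), as well as quantile normalization. Blcap did not pass (log2 change 0.08, adjusted p = 0.316).

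**Figure D2:**
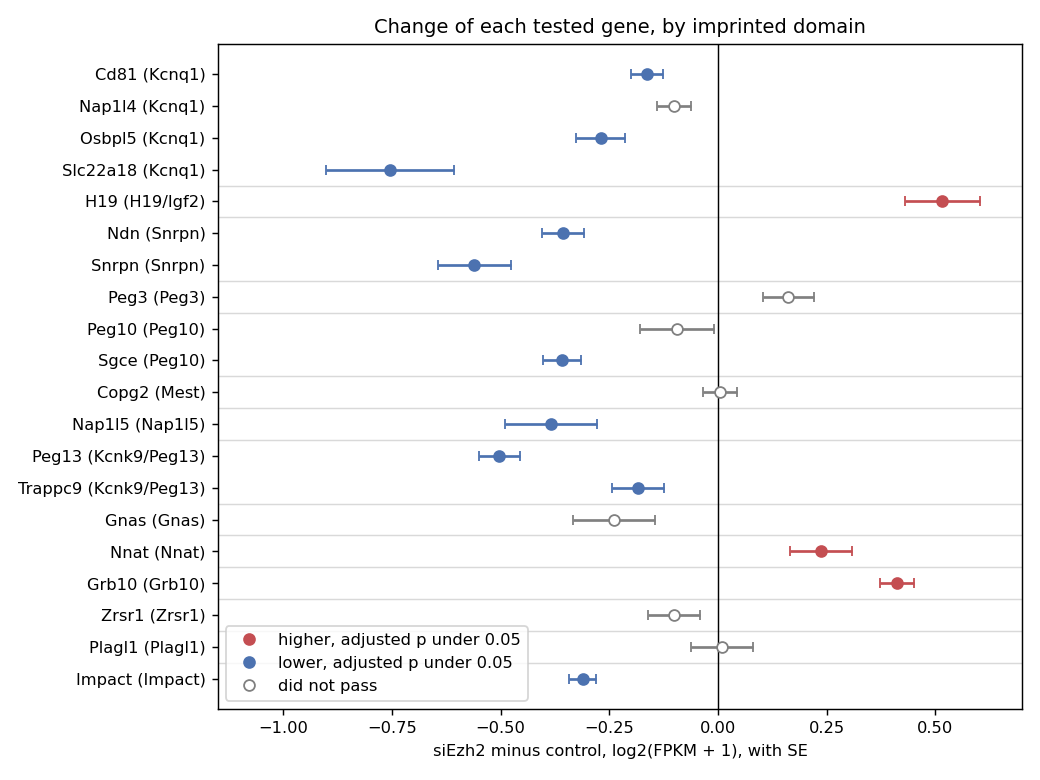
Log2 change (siEzh2 minus control on log2(FPKM + 1)) of the 20 tested genes, grouped by domain; bars are the standard error, filled points passed at an adjusted p under 0.05 and open points did not. The points run from -0.75 for Slc22a18 to 0.52 for H19, with 10 filled points left of 0 and 3 right of it.

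The Kcnq1 domain of distal chromosome 7 gave 8 genes, 4 of them tested. Slc22a18, Osbpl5 and Cd81 fell, and Nap1l4 did not pass. Slc22a18 (143473736 to 143499334), a maternally expressed transporter of the organic cation family, had the largest log2 change among the 20 tested genes of the list. It was measured at 9.22, 7.68 and 5.74 FPKM in controls and 4.28, 3.89 and 3.82 FPKM with siEzh2. The controls were widely spread, yet the lowest of them lay above every siEzh2 sample. The mean fell from 7.55 ± 1.74 to 3.996 ± 0.249 FPKM (SD, n = 3 each), 1.89-fold (log2 change -0.75, SE 0.15, adjusted p = 0.00726).

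Osbpl5, a lipid-transfer protein of the oxysterol-binding family whose imprinting is best known in placenta, gave 37.1, 37.7 and 40.5 FPKM in controls and 29.7, 32.2 and 33.2 FPKM with siEzh2. It was 1.21-fold lower (log2 change -0.27, SE 0.056, adjusted p = 0.00968). Cd81, a tetraspanin of the cell surface, was the most abundant gene of the list, at 167, 178 and 174 FPKM in controls and 153, 155 and 155 FPKM with siEzh2. The groups did not overlap, but the fall was only 1.12-fold (log2 change -0.16, SE 0.037, adjusted p = 0.0133). After quantile normalization this call was lost (log2 change -0.10, adjusted p = 0.0637). Nap1l4, a nucleosome assembly protein, was at 39.6, 37.6 and 37.5 FPKM in controls and 36.6, 35.0 and 35.1 FPKM with siEzh2 (log2 change -0.10, adjusted p = 0.0752). Its groups did not overlap, and limma-voom gave an adjusted p of 0.0139.

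The other 4 genes of the domain were below the filter. Kcnq1ot1, the paternally expressed noncoding RNA that lies within Kcnq1, had 114, 119 and 140 recovered reads in controls and 173, 155 and 132 with siEzh2, at 0.0670 to 0.116 FPKM over a transcript of great length. The read counts overlapped while the FPKM values of siEzh2 samples, which allow for depth, were all higher. With no filter it did not pass (adjusted p = 0.465 with limma and 0.0705 with limma-voom). Ascl2, a transcription factor of the trophoblast, had 11, 14 and 13 reads in controls and 21, 23 and 17 with siEzh2. Tspan32, a tetraspanin of blood cells, had 22, 27 and 36 reads and then 10, 7 and 10. Without the filter limma called Ascl2 higher (log2 change 0.29, adjusted p = 0.0226) and Tspan32 lower (-0.20, adjusted p = 0.0268). Limma-voom called Tspan32 (-1.50, adjusted p = 0.00741) and not Ascl2 (adjusted p = 0.153). Phlda2, which limits placental growth, had 1, 2 and 5 reads in controls and 0, 1 and 1 with siEzh2, too few to compare.

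Genes of the same domain outside the list moved in both directions. Cdkn1c, the maternally expressed inhibitor of cyclin-dependent kinases, fell from 5.96 ± 0.610 to 3.02 ± 0.138 FPKM (SD, n = 3 each; log2 change -0.79, adjusted p = 0.000368). An annotated antisense transcript covers 30.7% of its exon bases, and a strand setting for the counting was not given in the sources used here. Tssc4 rose from 26.7 ± 1.22 to 37.2 ± 1.15 FPKM (log2 change 0.46, adjusted p = 0.0006), and Trpm5 on the opposite strand covers 11.9% of its exon bases. Dhcr7, which completes cholesterol synthesis, rose as well (log2 change 0.34, adjusted p = 0.00679), and Tnfrsf23, a decoy receptor, did not pass (0.05, adjusted p = 0.49). Within 250 kb of the 8 genes lay 8 tested genes outside the list, with Cdkn1c, Tssc4, Dhcr7 and Tnfrsf23 among them. Of these 8 neighbours 5 were higher and 2 were lower, beside 24.1% and 22.7% of all tested genes. The rises there included Tnfrsf26 (log2 change 0.95), Tnfrsf22 (0.36) and Cars (0.35).

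**Figure D3:**
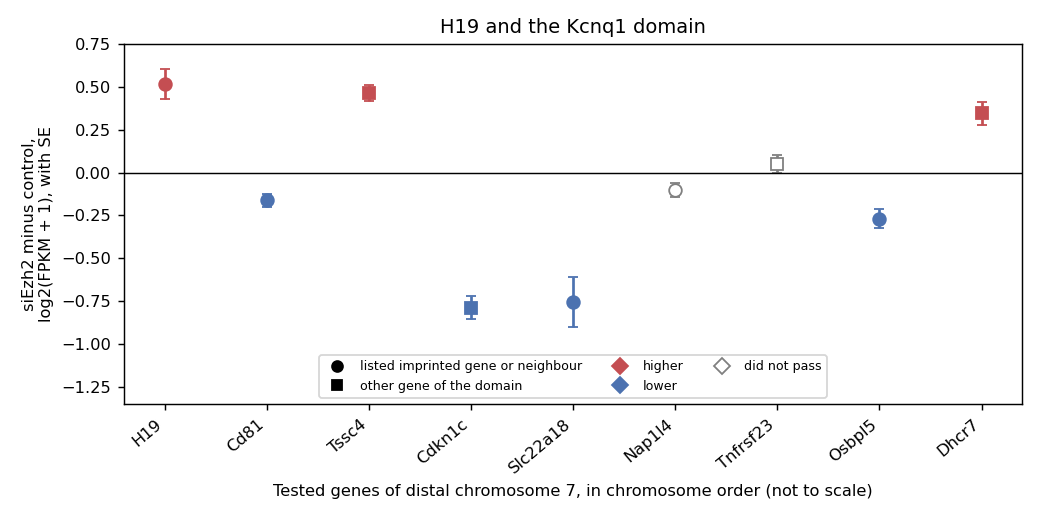
Log2 change (siEzh2 minus control on log2(FPKM + 1)) with standard error for H19 and selected tested genes of the Kcnq1 domain. Genes are in chromosome order and not to scale. Circles are listed imprinted genes, and squares are Cdkn1c, Tssc4, Dhcr7 and Tnfrsf23. Other tested neighbours, among them Tnfrsf26, Tnfrsf22, Cars and Mrgpre, are not drawn. H19, Tssc4 and Dhcr7 are the filled points above 0, while Cdkn1c and Slc22a18 lie lowest, at -0.79 and -0.75.

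In the Snrpn domain of central chromosome 7, the counterpart of the human Prader-Willi region, both tested genes of the list fell. Snrpn (ENSMUSG00000102252, 59982495 to 60140219) encodes SmN, a core protein of the spliceosome in brain and heart. It was at 3.14, 2.84 and 2.59 FPKM in controls and 1.81, 1.34 and 1.70 FPKM with siEzh2. No siEzh2 sample reached the lowest control, and the mean fell 1.76-fold (log2 change -0.56, SE 0.085, adjusted p = 0.00284). Of its exon bases, 27.3% belong also to Gm38393 on the same strand and 216 bases to Snurf, so how its reads were assigned is uncertain. Ndn (62346569 to 62350262), the growth suppressor necdin, was more abundant, at 30.3, 30.6 and 29.5 FPKM in controls and 22.1, 24.7 and 23.3 FPKM with siEzh2. It fell 1.29-fold (log2 change -0.36, SE 0.048, adjusted p = 0.00183). Magel2, a relative of Ndn that assists ubiquitin ligases, had 2 reads in 1 siEzh2 sample and 0 in the other 5 samples.

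Of the other tested genes of that domain, Peg12 was lower (log2 change -0.21, adjusted p = 0.0331). It did not pass when control sample 1 (adjusted p = 0.0958) or 3 (0.0956) or siEzh2 sample 1 (0.0778) or 3 (0.0551) was left out, nor with limma-voom (0.0967). Ube3a, a ubiquitin ligase expressed from the maternal copy in neurons, was higher (0.19, adjusted p = 0.00998). Atp10a, a phospholipid flippase, did not pass (-0.06, adjusted p = 0.129).

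Peg13 and Trappc9 of chromosome 15 also fell. Peg13 (72805600 to 72810324), a paternally expressed noncoding RNA, lies inside the body of Trappc9 on the same strand and shares 0 exon bases with it. It was measured at 7.10, 7.01 and 7.44 FPKM in controls and 4.60, 4.63 and 5.11 FPKM with siEzh2, a wide gap between groups. The fall was 1.504-fold (log2 change -0.50, SE 0.048, adjusted p = 0.000508), the smallest adjusted p of the list. Trappc9, a subunit of the vesicle-tethering complex TRAPP, was at 6.04, 5.27 and 6.01 FPKM in controls and 4.86, 4.77 and 5.25 FPKM with siEzh2. Its highest siEzh2 sample lay just below its lowest control, and the fall was 1.16-fold (log2 change -0.18, SE 0.06, adjusted p = 0.0462). The Trappc9 call ended when control sample 1 (adjusted p = 0.128) or 3 (0.129), or siEzh2 sample 1 (0.113) or 2 (0.126), was left out.

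The Peg13 level over the Trappc9 level was 1.18, 1.33 and 1.24 in controls and 0.947, 0.970 and 0.973 with siEzh2. The ratio was thus lower in all 3 siEzh2 samples, but an exact permutation test of 3 against 3 cannot go below its p of 0.1. Kcnk9, the potassium channel of the domain, had 1 read in all 6 samples together. Of the other genes there, Ago2, the slicing Argonaute, rose from 11.1 ± 0.118 to 15.0 ± 0.307 FPKM (SD, n = 3 each; log2 change 0.41, adjusted p = 0.000273). Chrac1, a histone-fold protein of a chromatin remodeller, was lower (-0.22, adjusted p = 0.0386), a call lost without control sample 2 (adjusted p = 0.11) or 3 (0.104) and without siEzh2 sample 1 (0.101) or 3 (0.0859).

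Sgce and Peg10 start side by side on chromosome 6 and are transcribed away from each other from the paternal copy. Sgce (4674350 to 4747207), epsilon-sarcoglycan of the complex that ties the cytoskeleton to the matrix, was at 6.55, 6.43 and 6.83 FPKM in controls and 5.13, 4.998 and 4.67 FPKM with siEzh2. It fell 1.34-fold with no overlap (log2 change -0.36, SE 0.044, adjusted p = 0.00124). Peg10 (4747306 to 4760517), a retrotransposon-derived gene needed in placenta, was at 5.72, 6.34 and 5.53 FPKM in controls and 6.18, 5.31 and 4.86 FPKM with siEzh2. These groups overlapped (log2 change -0.09, adjusted p = 0.402). Sgce over Peg10 was 1.14, 1.01 and 1.23 in controls and 0.829, 0.941 and 0.961 with siEzh2, again at the smallest p of 0.1 that the exact permutation test allows.

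Around them, Asb4, an ankyrin-repeat protein of ubiquitin ligases, had 40 to 72 reads in controls and 43 to 58 with siEzh2. Ppp1r9a, the actin-binding neurabin, had 10 to 36 and 15 to 28, and Calcr, the calcitonin receptor, had 2 reads in 1 control sample and 0 in the other 5 samples. None of these 3 genes separated the groups. Outside the list, Tfpi2, a maternally expressed protease inhibitor of the matrix, rose from 39.2 ± 0.848 to 58.3 ± 2.68 FPKM (SD, n = 3 each; log2 change 0.56, adjusted p = 0.000261). Pon2, Pon3, Casd1 and Pdk4 did not pass, with log2 changes from -0.12 for Casd1 to 0.10 for Pdk4. Among these genes, Sgce fell and Tfpi2 rose. Within 250 kb of the listed genes of the domain, Bet1 and Gm44250 were also lower (log2 changes -0.26 and -0.40), and Vps50 was higher (0.14).

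Nap1l5 and Impact fell as well. Nap1l5, a paternally expressed nucleosome assembly protein inside Herc3, was at 1.247, 1.99 and 1.75 FPKM in controls and 0.944, 1.05 and 1.09 FPKM with siEzh2. It was 1.62-fold lower (log2 change -0.38, SE 0.11, adjusted p = 0.0261), and -0.67 with limma-voom (adjusted p = 0.0202). Without control sample 2 the adjusted p was 0.0602, without control sample 3 it was 0.0777, and without siEzh2 sample 1, 2 or 3 it was 0.0759, 0.063 and 0.0549. Herc3 did not pass (log2 change 0.15, adjusted p = 0.134). Impact (chromosome 18, 12955852 to 12992950), which restrains the stress kinase GCN2, was at 33.3, 33.3 and 33.0 FPKM in controls and 26.5, 26.3 and 26.8 FPKM with siEzh2. Both groups were tight, and the fall was 1.2502-fold (log2 change -0.31, SE 0.031, adjusted p = 0.000577).

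The remaining 5 tested genes did not pass. Peg3, a zinc-finger protein, was at 1.14, 1.002 and 0.934 FPKM in controls and 1.23, 1.15 and 1.41 FPKM with siEzh2 (log2 change 0.16, adjusted p = 0.0646). The gap between its groups was narrow. It passed with limma-voom (log2 change 0.29, adjusted p = 0.014) and without control sample 1 (adjusted p = 0.0491). Gnas, the stimulatory G protein alpha subunit, was at 2.87, 2.46 and 2.77 FPKM and then 2.46, 1.73 and 2.25 FPKM (log2 change -0.24, adjusted p = 0.0802). Opposite-strand genes share 13.1% (Gm20721) and 8.83% (Nespas) of its exon bases. It passed with limma-voom (adjusted p = 0.00123) and without siEzh2 sample 1 (0.0457). The recovered reads of Peg3 and Gnas, which limma-voom used, were not whole in every sample.

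Zrsr1, a splicing factor copied by retrotransposition into Commd1, was at 2.45, 2.22 and 2.21 FPKM in controls and 2.24, 2.12 and 1.85 FPKM with siEzh2 (log2 change -0.10, adjusted p = 0.207). Commd1, on the opposite strand, covers 9.17% of its exon bases. Plagl1, a zinc-finger factor that slows growth, was at 1.76, 1.97 and 1.62 FPKM and then 1.76, 1.62 and 2.03 FPKM, with a log2 change of 0.01 (adjusted p = 0.93) whose sign flipped after quantile normalization (-0.03). Copg2, a coat protein of Golgi vesicles, was at 7.33, 7.05 and 7.51 FPKM and then 7.27, 7.56 and 7.14 FPKM, a log2 change of 0.00 (SE 0.039, adjusted p = 0.945) that was -0.02 after quantile normalization. Values of these 3 genes overlapped between groups. Mest, a hydrolase-like gene whose exons on the opposite strand share 17.8% of the Copg2 exon bases, was below the filter with 37, 37 and 47 reads in controls and 33, 18 and 20 with siEzh2. In FPKM, which allows for depth, the groups of Mest overlapped. With no filter it did not pass (adjusted p = 0.195 with limma and 0.105 with limma-voom).

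Below the filter were 19 genes, and 5 of these had under 20 reads over the 6 samples (Usp29, Calcr, Magel2, Phlda2 and Kcnk9). The Dlk1-Dio3 domain of chromosome 12 was low throughout. Its maternally expressed noncoding RNAs had 65 to 129 (Meg3), 129 to 187 (Rian) and 78 to 87 (Mirg) reads in controls and 87 to 115, 92 to 235 and 49 to 68 with siEzh2. Of these 3 only Mirg separated the groups, all siEzh2 samples being lower, and it did not pass without the filter (adjusted p = 0.222 with limma). Dlk1, a paternally expressed inhibitor of fat cell formation, had 36, 57 and 19 reads in controls and 32, 59 and 24 with siEzh2. Airn, the noncoding RNA that silences the paternal copy of Igf2r, had 36 to 51 and 42 to 56 reads. Zim1, a zinc-finger gene of the Peg3 domain, had 12 to 19 and 10 to 19, and Commd1, a regulator of copper handling, had 25 to 39 and 22 to 32.

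Usp29, the ubiquitin protease that shares its promoter region with Peg3, had 0 reads in every control sample and 1, 3 and 1 with siEzh2. A count of 0 allows up to 3 reads, 0.16 to 0.164 CPM at the depths of the control samples, so no fold is given. Limma-voom with no filter called it (adjusted p = 0.0339), and limma did not (0.844). With no filter, limma called 2 of these 19 genes (Ascl2 and Tspan32) and limma-voom called 2 (Tspan32 and Usp29), beside 18.7% and 21.9% of all genes in the same fits. In the limma fit without the filter 10.1% of all genes were higher and 8.66% lower, and in the limma-voom fit 10.8% and 11.1%.

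**Figure D4:**
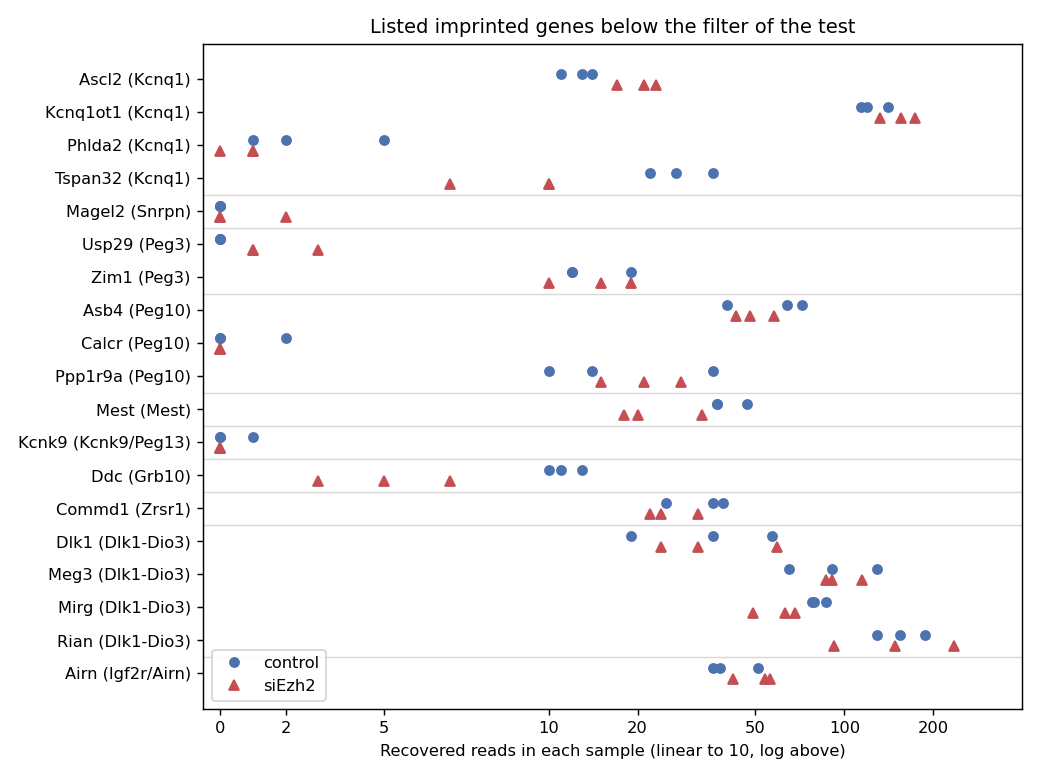
Reads recovered in each sample for the 19 genes below the filter, with the domain in brackets; the axis is linear up to 10 and logarithmic above, circles are control and triangles siEzh2 samples. For Rian and Airn the recovered reads were not whole in every sample. Tspan32 and Ddc have all 3 triangles left of the circles, at 10 reads or fewer. Reads are not scaled for depth, and the groups of Mest, apart here, overlapped in FPKM.

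By the parental copy known from textbooks to be expressed, in an assignment written after the values had been seen, 18 of the 40 genes were paternal, 10 maternal and 12 neighbours or genes imprinted in some tissues only. Of the 11 tested paternal genes 1 was higher (Nnat) and 6 were lower (Snrpn, Peg13, Nap1l5, Sgce, Ndn and Impact), with a median log2 change of -0.31. Of the 3 tested maternal genes H19 and Grb10 were higher and Slc22a18 was lower. Of the 6 tested neighbours and tissue-limited genes 0 were higher and 3 were lower (Cd81, Osbpl5 and Trappc9), with a median of -0.17. Of all tested genes 24.1% were higher and 22.7% lower, and whether these classes differ was not tested.

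A wider list of 55 other imprinted genes and domain neighbours had 49 in the tables and 33 tested. Of these, 9 were higher, 8 were lower and 16 did not pass, with a median log2 change of -0.01, beside 24.1% higher and 22.7% lower among all tested genes. Igf2r, the receptor that clears IGF2 and the partner of Airn, rose from 43.1 ± 0.730 to 57.0 ± 1.35 FPKM (SD, n = 3 each; log2 change 0.40, adjusted p = 0.000411). Mcts2, a retrogene of a translation factor, rose (0.43, adjusted p = 0.00316) while its host H13, a signal peptide peptidase, fell (-0.18, adjusted p = 0.0107). Slc38a4, an amino acid transporter, fell from 2.45 ± 0.145 to 1.45 ± 0.195 FPKM (-0.49, adjusted p = 0.00183). Phactr2, a phosphatase and actin regulator beside Plagl1, fell (-0.27, adjusted p = 0.00981). Smoc1, a matrix protein, was lower (-0.14, adjusted p = 0.0223), a call lost without control sample 2 (adjusted p = 0.0727) or 3 (0.0535) and without siEzh2 sample 1 (0.0613) or 2 (0.0531). Igf2 and Kcnq1 were below the filter. Gm49394 on the same strand shares 62.8% of the exon bases of Igf2, so how Igf2 reads were assigned is uncertain.

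Of 25 regulators that set or keep imprints, 21 were tested, 6 were higher, 2 were lower and 13 did not pass, with a median log2 change of 0.04, beside the same 24.1% and 22.7%. The rises included Mbd1, a methyl-CpG binder (14.4 ± 0.406 to 23.7 ± 0.346 FPKM, SD, n = 3 each; log2 change 0.68, adjusted p = 8.47e-05). Uhrf1, which brings the maintenance methyltransferase to replicated DNA, rose (0.41, adjusted p = 0.000498), as did that enzyme, Dnmt1 (0.22, adjusted p = 0.0098). Hells, a chromatin remodeller (0.41, adjusted p = 0.0012), and Zfp445, a zinc-finger protein that keeps imprints (0.25, adjusted p = 0.0119), also rose. Ehmt2, a histone H3K9 methyltransferase, fell (-0.27, adjusted p = 0.00101). Dnmt3a, the de novo DNA methyltransferase, was lower (-0.17, adjusted p = 0.0386). Its call was lost without control sample 1, 2 or 3 (adjusted p = 0.0737, 0.0652 and 0.112) and without siEzh2 sample 2 or 3 (0.106 and 0.094). Zfp57, Trim28 and Ctcf did not pass, with log2 changes of -0.09, -0.04 and 0.24. Of these, Ctcf was close (adjusted p = 0.0535, limma) and was called higher with limma-voom (adjusted p = 0.00167).

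Within 250 kb of the listed genes lay 70 other tested genes, some of them also in the wider list, such as Igf2r, Cdkn1c and Tfpi2. Of the 70 genes 27.1% were higher and 15.7% were lower, beside 24.1% and 22.7% of all tested genes. Of the listed genes tested 50% were lower, and whether that share differs from the neighbours' share was not tested.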

How the data were processed

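For each of the 6 samples the authors deposited a gene table in FPKM, per the file headers. Trimmomatic, HISAT2, HTSeq, Cufflinks and build mm10 are named, without versions or order, per the submitters' processing notes. Libraries were made with a stranded mRNA kit per the labels' protocols. A strand setting for the counting was not given in the sources used here.

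Control and siEzh2 samples were compared with limma 3.58.1 (R 4.3.3) on log2(FPKM + 1), for genes whose mean reached 1 FPKM in a group, siEzh2 minus control, with no covariate. Benjamini-Hochberg adjustment ran over all 11869 tested genes, and an adjusted p under 0.05 was a call. A log2 change on this scale understates the change of low genes. SD and fold are of FPKM. FPKM multiplied by GENCODE M21 exon length (27434 of 27502 IDs) moved in whole reads, and 98.4% to 98.5% of values under 1000 reads were whole within 0.02. Whole reads in every sample were found for 35 listed genes, and not for Rian, Airn, Peg3 and Gnas. Limits from 3 reads cover counting error only. On these reads limma-voom with scaling by the trimmed mean of M-values was an alternative. Coordinates are GRCm38 and promoters RefSeq. Other steps used Python 3.11.15 (pandas 2.3.3, numpy 2.4.6), scipy 1.17.1 for exact tests and matplotlib 3.10.9 for plots.

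The members, lists and tests were chosen with earlier results of these data known. Every listed gene is reported. From the wider lists up to 5 called genes in each direction with the smallest adjusted p are named, plus genes of domains with a called gene, and Ezh2. Other genes named were chosen after their values were seen. Pairs of samples differed by more than sampling noise (chi-square per degree of freedom 2.09 to 3.12 within a group, 25.5 to 27.4 across groups), and none was a copy. The test was tried on simulated data first. Alternatives were quantile normalization, no filter, a pseudocount of 0.1, the replicate number as a block, trend and robust on, leaving out each sample and limma-voom; limma-voom with no filter was added after seeing the data.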

Additional observations from a re-analysis of the deposited data

How the results depend on the processing

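Of the 13 called imprinted genes 9 kept their call in all 13 alternative settings and 0 reversed; the other 4 were Cd81, Nap1l5, Nnat and Trappc9. Calls ranged over these settings from 2 to 3 higher and from 8 to 12 lower. The median log2 change of the tested imprinted genes was -0.21 with limma-voom and no filter, beside -0.17. The near-zero change of Plagl1 turned negative after quantile normalization (-0.028), with limma-voom and no filter (-0.0091), and ranged from -0.048 to 0.057 when single samples were left out. That of Copg2 turned negative after quantile normalization (-0.020), with limma-voom (-0.0040), with limma-voom and no filter (-0.017), and ranged from -0.018 to 0.022 when single samples were left out. Lower calls among the other imprinted genes were 5 with no filter in place of 8, and 4 to 7 when single samples were left out. Among regulators they were 1 in place of 2 with no filter, 1 with the replicate block, 1 with trend and robust on, and 1 to 2 when single samples were left out. The cause of these changes was not tested.

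Samples that share a replicate number had deviations correlated at 0.0243, 0.0695 and 0.0405, so the numbers were not taken to pair them; each siEzh2 sample did correlate best with its own number, a hint from the data and not from the design. With the replicate block 2564 genes were higher and 2385 lower in place of 2866 and 2695, and 3 and 11 imprinted genes, Gnas being added (adjusted p = 0.0249). With no filter Nnat, Nap1l5 and Trappc9 had adjusted p of 0.0865, 0.0705 and 0.0985, and with a pseudocount of 0.1 Trappc9 had 0.0528. Depth limits the 19 genes below the filter, several of them at a few reads per sample.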
